A study of Homo sapiens with 18 samples.

Results

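Clones 2N-2 and 2N-3, both diploid and of the same human cell line, were compared at equal ploidy, as the 3 libraries of 2N-3 against the 3 of 2N-2. The 6 libraries were chosen by their labels out of the 18 of the series. RPE1 is an immortalised line of human retinal pigment epithelium. The whole series holds 6 RPE1 clones, 3 diploid and 3 tetraploid, each with biological replicates A, B and C. Every clone, 2N-2 and 2N-3 included, descends from cells treated with ZM447439 (2.5 uM, 72 h), which blocks Aurora kinase activity, and then left for some weeks until growing populations appeared. Single cells were then plated 1 to a well, ploidy was read by FACS, and each diploid clone was taken from the plates of its tetraploid partner. Clone 2N-2 was in addition labelled with the DNA dye Hoechst 33342 before it was sub-cloned. The labels give that step for 2N-2 and 4N-2 and not for 2N-3, so the dye step and the identity of the clone cannot be told apart. No clone kept without the drug is in the comparison, and each group is 1 clone, so a difference is between these clones and not between kinds of cell.

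Aurora B belongs to the complex that corrects chromosome attachment in mitosis and completes cell division, and cells without its activity can leave mitosis undivided. A clone descends from a single cell, and its cells share what that cell passed on, including the on or off state of genes held by DNA methylation and chromatin. HOX genes, which encode transcription factors of body position, are a known case of such states, since Polycomb and Trithorax proteins keep each cluster silent or active through cell divisions. Bulk RNA gives the mean over a culture, in which fewer expressing cells and less RNA per cell cannot be told apart.

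Both clones carried transcripts of the tissue named by their labels, though few of the late pigment genes. OTX2 and SIX3, transcription factors of the early eye field and pigment epithelium, reached 4.61 and 13.2 RPKM in 2N-2 and 3.32 and 14.5 RPKM in 2N-3 as means. RPKM is reads per kilobase of gene and per M reads, with M for mega. Of 28 markers of retinal pigment epithelium, 15 lay under 1 read per M in both clones, among them the visual cycle gene RPE65 and the pigment enzyme gene TYR, and the transport protein gene TTR was at 0 in all 6 libraries. Of 26 markers of other cell types, 23 lay under 1 read per M and 5 were at 0. Their summed level was 0.457 to 0.516 RPKM in the libraries of 2N-2 and 0.501 to 0.577 RPKM in those of 2N-3.

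Library A of 2N-3 stood apart from the other libraries. The 6 libraries held 37.5 to 54.4 M reads in genes, against 37.2 to 54.4 M over all 18, and A of 2N-3 had 37.5 M. The second principal component of all libraries (23.2% of the variance) put A of 2N-3 at 55.6 and the other 17 between -9.83 and 0.54. Over the 9704 genes tested on RPKM, 886 lay 2-fold or more from the mean of B and C in that library, 606 higher and 280 lower, against 25 to 38 for a library of 2N-2 set against its replicates. The deviation followed the length of the transcript, with a median of 0.58 (log2) in protein-coding genes whose longest transcript was under 2118 bases and -0.29 in those of 4734 bases or more. It also followed base composition, with a median of 0.39 in genes of 58.0% G and C or more and -0.17 in those under 43.05%. Libraries of 2N-2 followed composition as well, to a smaller extent. These medians were 0.09 and -0.08 in B of 2N-2, -0.04 and 0.03 in A, and -0.05 and 0.04 in C. Of 33 cytosolic ribosomal protein genes, which have short messages, all 33 were higher in A of 2N-3, by a median of 0.97. Genes at the low end were the zinc finger gene ZBED6, at 0.48 RPKM in A against 9.94 and 9.15 in B and C, and the small nuclear RNA pseudogene RNU6-26P, at 0.52 against 16.2 and 15.3. Counts below are therefore given for all 6 libraries, and without A of 2N-3 for the calls and for the gene groups that open a paragraph. The part of length and composition in any single difference was not tested.

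**Figure D1:**
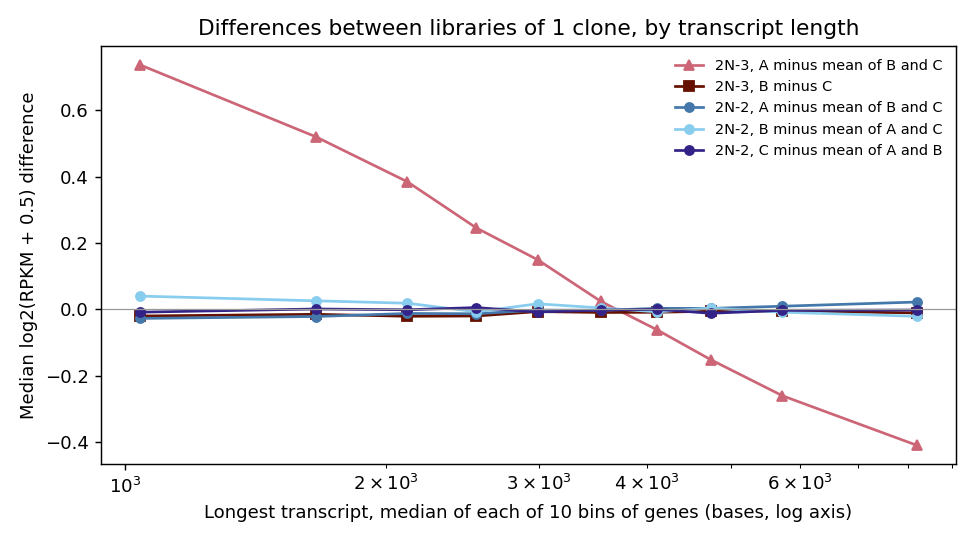
Median difference in log2(RPKM + 0.5) between libraries of 1 clone (vertical axis) for 10 equal bins of the protein-coding genes ordered by their longest transcript (horizontal axis, bases, log scale). Library A of 2N-3 goes from 0.74 in the shortest bin to -0.41 in the longest, while B minus C of the same clone and the libraries of 2N-2 stay within 0.04 of 0.

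On the deposited RPKM values the clones were close, and the genes that differed most were a chemokine and an anticoagulant receptor. Of 9704 genes tested, 13 were called (0.134%), which takes a limma adjusted p under 0.05 together with at least a 2-fold difference, with 12 higher and 1 lower in 2N-3. At any fold, 58 rose (0.598%) and 41 fell (0.423%), and the median change over all genes was 0.04 on the log2(RPKM + 0.5) scale, which understates the change of low genes. Without A of 2N-3, 9 were called (0.0927%), 7 higher and 2 lower, while 83 rose (0.855%) and 109 fell (1.12%) at any fold. Of the 13 called genes, 7 were called again without A, 12 kept an adjusted p below 0.05, and all 13 kept their sign. Leaving out any other library gave 11 to 27 calls, the most without B of 2N-3. With only the 6 libraries in the fit 3 genes were called, and at any fold 2 rose and 1 fell.

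THBD encodes thrombomodulin, a receptor that turns thrombin towards an anticoagulant role. It stood at 2.92, 2.92 and 2.70 RPKM in A, B and C of 2N-2 and at 15.4, 17.1 and 16.6 RPKM in 2N-3. The groups were far apart, and the libraries of each clone lay close together, A of 2N-3 included. The log2 difference was 2.33 (SE 0.10, limma adjusted p = 5.88e-09) and 2.38 without A. The level in 2N-1, the third diploid clone, was 17.04 ± 1.07 RPKM (SD, n = 3), near that of 2N-3.

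CCL2 encodes a chemokine that draws monocytes. It was at 25.1, 25.6 and 18.9 RPKM in 2N-2 and at 5.37, 4.16 and 3.83 RPKM in 2N-3. All 3 libraries of 2N-3 lay under all 3 of 2N-2. It fell by 2.25 (SE 0.20, limma adjusted p = 5.51e-05), and by 2.38 without A. In 2N-1 it was at 0 reads in each library, so among the diploid clones 2N-3 held the middle level.

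Other genes that kept their call without A were higher in 2N-3. MDK, the gene of the growth factor midkine, was at 0.919, 0.904 and 0.726 RPKM in 2N-2 and at 4.79, 2.73 and 2.32 RPKM in 2N-3, a log2 difference of 1.44 (SE 0.16, limma adjusted p = 0.000289). A was the highest library, and without it the difference was 1.17. BEX4, a gene of the X-linked BEX family, was at 1.37 to 1.54 RPKM in 2N-2 and at 3.67 to 4.89 in 2N-3, a difference of 1.23. SMIM10, which encodes a small membrane protein and also lies on X, went from 0.988 to 1.28 RPKM in 2N-2 to 2.63 to 3.86 in 2N-3. CACNG7, a regulatory subunit of calcium channels and AMPA receptors that was named after its values were seen, had the narrowest spread, with 0.337, 0.310 and 0.298 RPKM against 1.40, 1.32 and 1.21, and a difference of 1.15 (SE 0.07). None of these 4 overlapped between the clones, nor did any of the 13 called genes. The share without overlap was not counted over all genes tested on RPKM, and was 20.6% over those tested on reads. For MDK, BEX4 and SMIM10 the lack of overlap was a condition of being named.

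The other 6 calls were lost without A of 2N-3. HYI, a gene of a putative hydroxypyruvate isomerase, was at 9.76, 10.5 and 11.1 RPKM in 2N-2 and at 37.5, 18.7 and 22.4 in 2N-3, with A well above B and C. Its difference was 1.23, and 0.94 without A (limma adjusted p = 0.00504). The glutathione transferase gene GSTM3 went from 1.11 to 0.90, the zinc finger gene ZNF32 from 1.11 to 0.88, the small GTPase gene RAC3 from 1.06 to 0.81, and CITED4, a coactivator gene named after its values were seen, from 1.13 to 0.83. These 5 still passed the test and missed only the 2-fold mark. The non-coding locus AL133415.1 was at 0.401, 0.714 and 1.16 RPKM in 2N-2 and 2.77, 1.97 and 2.08 in 2N-3, and without A its adjusted p was 0.103. Called only without A were C19orf33, which was lower in B and C (0.773 and 0.644 RPKM) than in A (1.76 RPKM) and in 2N-2 (1.85 to 2.08 RPKM), and the small RNA pseudogene RNU7-47P, which rests on 12 reads in 2N-3 and 2 in 2N-2.

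**Figure D2:**
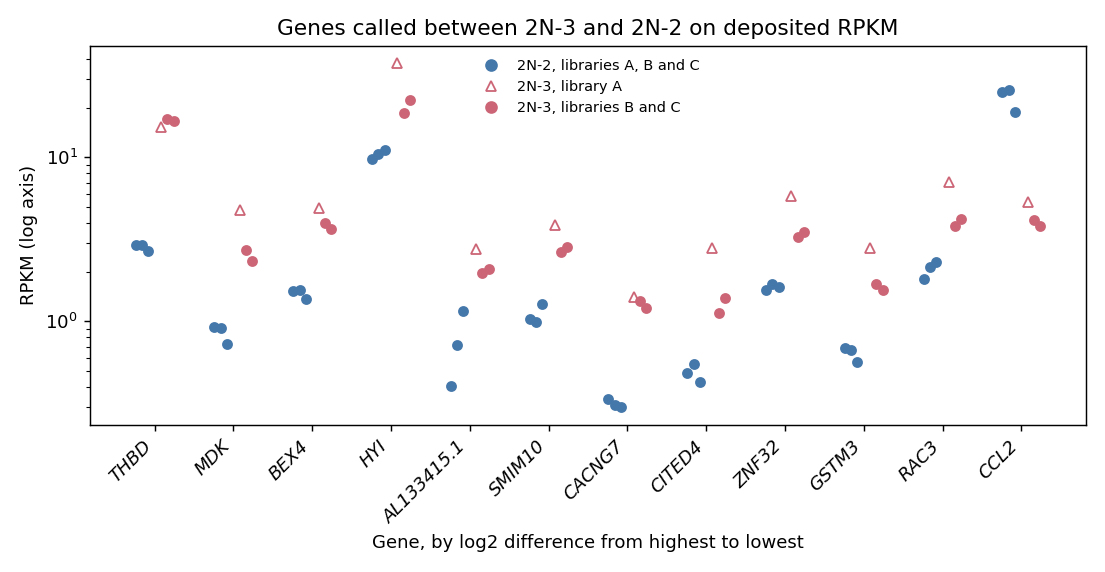
RPKM (log axis) of 12 genes called on RPKM in each library of 2N-2 (blue circles) and of 2N-3 (open triangle for A, red circles for B and C). THBD and CACNG7 hold 2N-3 together, at 15.4 to 17.1 and 1.21 to 1.40 RPKM, while in HYI and CITED4 library A lies well above B and C.

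The lengths behind the deposited values include introns for most genes, so a gene with long introns has a low RPKM and many such genes missed the minimum of 1 RPKM. Whole reads were therefore recovered from the steps of the RPKM values, and 23413 genes were fitted with limma-voom. Of these, 388 were called (1.66%), 214 higher and 174 lower in 2N-3, and 352 of them had not been tested on RPKM. At any fold, 391 rose (1.67%) and 438 fell (1.87%). Without A of 2N-3, 359 were called (1.53%), 212 higher and 147 lower, with 525 rising (2.24%) and 518 falling (2.21%) at any fold, and 321 of the 388 were called again. Most called genes were low: 233 of 388 reached 1 read per M in a clone and 41 reached 10 reads per M. All 388 separated the clones without overlap, which 20.6% of all genes tested did.

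Genes lower in 2N-3 included a cytokine, matrix genes and a row of transporters. IL33, which encodes an alarm cytokine of barrier tissues, was at 12.6, 15.4 and 11.3 reads per M in 2N-2 and at 0.941, 1.29 and 1.23 in 2N-3. All 3 libraries of 2N-3 lay far below those of 2N-2. The log2 difference was -3.49 (SE 0.26, limma adjusted p = 2.4e-07), and -3.37 without A. CMKLR1, the receptor gene of the chemoattractant chemerin, went from 20.8, 21.5 and 17.04 reads per M to 4.46, 6.91 and 5.08, a difference of -1.86. IGFBP5, a binding protein of insulin-like growth factors, fell from 24.3 ± 4.43 to 8.08 ± 1.99 reads per M (SD, n = 3), and COL14A1, a collagen that binds fibrils, from 21.0 ± 2.73 to 5.92 ± 1.69. The log2 differences were -1.60 and -1.85. PCDH7, a protocadherin, fell by 1.26 and DMTN, an actin-bundling protein, by 1.31. EYA4, a transcriptional cofactor, fell by 1.33, and by 0.97 without A, where it passed the test but not the 2-fold mark.

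A row of 3 neighbouring ABC transporter genes on chromosome 17, of the subfamily linked to lipid transport, were lower together. ABCA6 was at 48.5, 48.4 and 36.7 reads per M in 2N-2 and at 6.89, 15.4 and 11.4 in 2N-3, a difference of -2.04 (SE 0.31). ABCA9 differed by -2.70 and ABCA8 by -3.22, and for each the highest library of 2N-3 (3.52 and 2.90 reads per M) lay below the lowest of 2N-2 (12.6 and 13.4). With the pseudogene SEC24AP1 they formed a run of 4 called genes at chr17:68867292-69141888 (GENCODE v29, GRCh38). In 2N-1 the levels lay between, at 18.5, 4.67 and 10.4 reads per M for ABCA6, ABCA9 and ABCA8. The Wilms tumour transcription factor gene WT1 and the adjoining WT1-AS, both named after their values were seen, were also lower as a pair. WT1 went from 3.34 ± 0.0331 to 0.315 ± 0.0448 reads per M and WT1-AS from 3.84 ± 0.406 to 0.522 ± 0.147 (SD, n = 3), differences of -3.36 and -2.88. TESPA1, a T cell signalling gene named on the same terms, went from 8.80, 8.89 and 7.48 reads per M to 0.360, 0.187 and 0.182, a difference of -5.13.

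Genes higher in 2N-3 included a long non-coding RNA, an enzyme of fucose metabolism and a lysosomal channel. AC068633.1, a long non-coding RNA on chromosome 3, was at 1.35, 1.39 and 1.21 reads per M in 2N-2 and at 7.56, 15.7 and 15.1 in 2N-3. A of 2N-3 was the lowest of its clone here, and the difference was 3.21 with it and 3.53 without. GMDS, the first enzyme gene of GDP-fucose synthesis, went from 6.30, 7.16 and 7.09 reads per M to 24.7, 17.4 and 18.1, a difference of 1.53 (SE 0.12). MCOLN3, a lysosomal cation channel, differed by 1.46, MACROD2, an ADP-ribose hydrolase, by 1.42, and NXN, a thioredoxin relative, by 1.37. GCA, a calcium-binding protein of granulocytes, differed by 1.29, and IL1RAPL1, a synaptic member of the interleukin-1 receptor family, by 1.15 with 8.74 to 9.18 reads per M in 2N-2 and 19.2 to 20.8 in 2N-3. NMU, the gene of the peptide neuromedin U, had A highest, at 18.1 reads per M against 8.97 and 8.02 in B and C, and its difference of 1.28 became 0.94 without A. RHPN1 differed by 1.56. FBXL16, an F-box gene named after its values were seen, rose from 0.141, 0.365 and 0.552 reads per M to 6.26, 5.65 and 5.97, a difference of 4.24.

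More HOX genes fell than rose in 2N-3. Of 39 members, 17 were tested on reads, of which 9 fell, 2 rose and 9 were called, where 1.87% of all genes tested fell, 1.67% rose and 1.66% were called. The list had a median of -0.95 on the log2 scale against -0.01 over all genes tested. Without A of 2N-3, 9 fell and 1 rose, with the same median of -0.95. Genes with 0 reads in 2N-3 put at their lower bound left the median at -0.95. Of all 39 members, 30 were under 1 read per M in both clones and 10 were at 0 reads, so the count covers the minority that was transcribed.

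The transcribed HOXC genes on chromosome 12 were at 0 or 1 reads in 2N-3. HOXC6 was at 3.71, 3.71 and 3.86 reads per M in 2N-2, 562 reads in all, and at 0 reads in each library of 2N-3. HOXC8 was at 2.80, 2.83 and 3.07 reads per M in 2N-2, 433 reads, and again at 0 in 2N-3. Set against a floor of 3 reads over the 3 libraries, HOXC6 was at least 153.5-fold and HOXC8 at least 118.3-fold lower in 2N-3. HOXC4 and HOXC5 had 134 and 128 reads in 2N-2 and 1 read each in 2N-3, where both genes may hold the same read since their models overlap. The overlapping locus AC012531.2 had the same 562 reads as HOXC6. The means in 2N-1 were 2.62 reads per M for HOXC6 and 2.12 for HOXC8, and all 3 tetraploid clones had reads of both, down to 0.43 and 0.41 in 4N-2.

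The other HOX clusters moved less and not all one way. HOXB3 was at 36.9, 39.3 and 40.6 reads per M in 2N-2 and at 20.2, 20.3 and 19.8 in 2N-3, a fall of 0.95 (SE 0.07, limma adjusted p = 1.35e-07) that did not reach 2-fold. HOXB6, the strongest HOX gene tested on RPKM, went from 1.94, 2.13 and 2.20 RPKM to 1.12, 0.883 and 0.925, and HOXB5 fell with it. HOXA3 went from 10.3 ± 0.376 to 4.93 ± 0.619 reads per M (SD, n = 3) and HOXA2 from 0.883 ± 0.133 to 0.241 ± 0.0741. The risers were HOXB7, from 5.05 ± 0.417 to 7.35 ± 0.209 reads per M, and HOXA5, from 0.107 ± 0.026 to 0.340 ± 0.0903, which rests on 16 and 41 reads and lost its test without A (adjusted p = 0.0787).

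**Figure D3:**
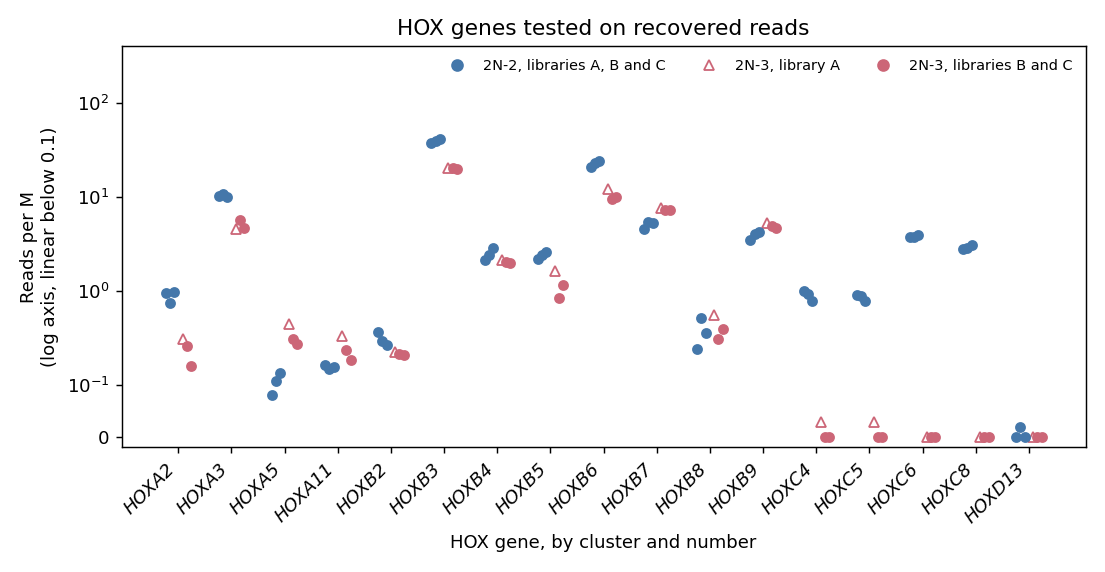
Reads per M (log axis, linear below 0.1) of the 17 HOX genes tested on reads, in each library of 2N-2 and 2N-3. HOXC6 and HOXC8 lie at 0 in 2N-3 and at 2.80 to 3.86 in 2N-2, while HOXB7 is higher in 2N-3.

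A small set of genes was on in every library of 1 clone and off in every library of the other. On was set at 1 read per M or more and off at 0.1 or less, so the genes were chosen by the values and the ratios below are a description. Of 16512 genes on in either clone, 8 were on in 2N-3 alone and 5 in 2N-2 alone. Leaving out A of 2N-3, the same 8 were on in 2N-3 alone, and 6 were on in 2N-2 alone, the 5 among them. For the other diploid pairs the counts were 5 on in 2N-2 and 1 on in 2N-1, and 7 on in 2N-3 and 3 on in 2N-1, in comparisons that share libraries. ZNF22, a zinc finger gene on chromosome 10, was at 2.35, 2.39 and 2.85 reads per M in 2N-3 and at 0.040, 0.037 and 0.066 in 2N-2, with 312 and 7 reads (ratio 54.4, 95% exact binomial interval 26.1 to 136). MTMR8, a myotubularin-related gene on X, was at 1.16, 1.52 and 1.00 reads per M in 2N-3 and had 0 reads in 2N-2, at least 61.4-fold. Both genes, and ANO5, a membrane protein gene of muscle, had means below 0.1 read per M in all 5 other clones.

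Of the other 5 genes on in 2N-3, ARSE, LINC01060, ADAMTS16 and C3orf14 were also on in every library of 1 or 2 tetraploid clones. ZNF334 was not, with its highest mean elsewhere at 0.33 reads per M in 4N-3. ARSE, which encodes a Golgi sulfatase of cartilage development, was at 3.65 ± 0.50 reads per M in 2N-3 and at 0.04 ± 0.04 in 2N-2 (SD, n = 3), and reached 1.76 in 4N-1. ADAMTS16, a secreted metalloproteinase gene, had 249 reads in 2N-3 and 1 in 2N-2 (ratio 303.9, interval 54.0 to 12050), and 5.53 reads per M in 4N-3. C3orf14, ZNF334 and LINC01060 had ratios of 71.1, 49.5 and 95.2. On in 2N-2 alone, besides HOXC6, HOXC8 and AC012531.2, were LMAN1L, a lectin-like gene with 203 reads against 3 in 2N-3 (ratio 55.5, interval 18.7 to 271), and ACPP, which encodes prostatic acid phosphatase, with 185 against 7 (ratio 21.7, interval 10.3 to 54.6). LMAN1L was under 0.1 read per M in the 5 other clones. All intervals cover counting error only.

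**Figure D4:**
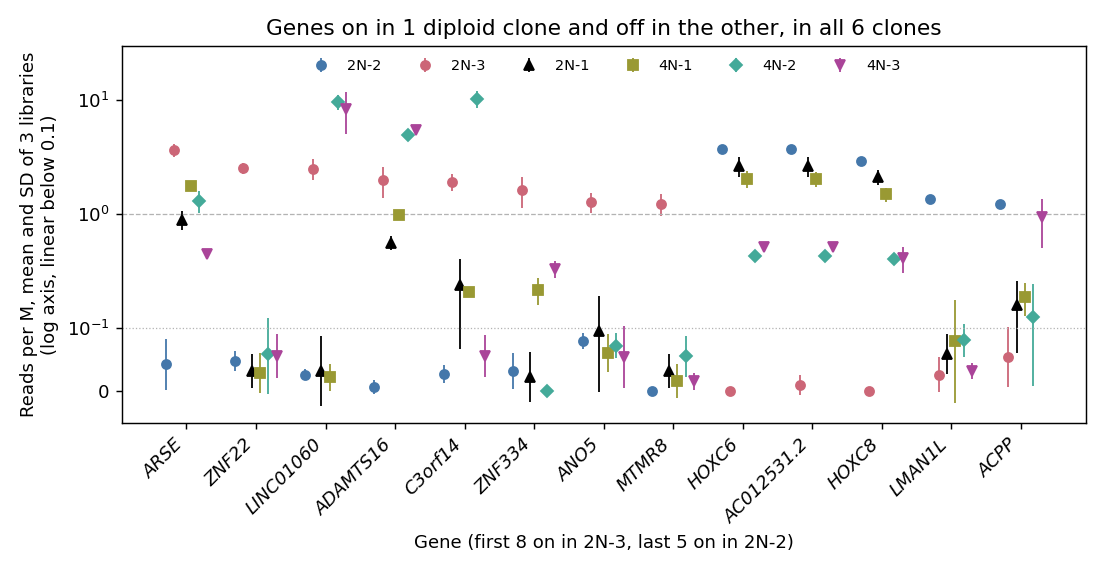
Reads per M (log axis, linear below 0.1) of the 13 genes on in 1 diploid clone and off in the other, as mean and SD of 3 libraries in all 6 clones, with dotted and dashed lines at 0.1 and 1. ZNF22 and MTMR8 are on in 2N-3 and near 0 in the other 5 clones, and HOXC6 is at 0 only in 2N-3.

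Promoters of the genes called lower in 2N-3 held a lower median number of CpG pairs, the sites at which DNA is methylated, with a wide range in both directions. The 250 bases before the start were taken from RefSeq (GRCh38.p14), and the motif CG, which reads the same on both strands, was counted. The 174 genes called lower, of which 111 matched, held a median of 10 CpG, with 50.5% at 10 or more. The 214 called higher, of which 137 matched, held 19, with 74.5% at 10 or more, and all 23413 genes tested, of which 13006 matched, held 20, with 78.5% at 10 or more. With A of 2N-3 left out, the medians were 9.5 for the genes called lower and 19 for those called higher. No test was made of this difference. The 174 genes include overlapping models that share reads, such as 9 UGT1A genes of 1 locus, and the sets were not matched for level. The genes on in 2N-3 alone, of which 6 of 8 matched, held a median of 12.5, with 66.7% at 10 or more, against 21 and 84.1% for the genes on in either clone (10815 of 16512 matched). ZNF22 and MTMR8 are shown as genes on in 2N-3 alone, and IL33, CMKLR1 and ABCA9 as genes that fell, with each CG in capitals. The 5 were picked to show promoters rich and poor in CpG, not as typical of their groups. They lie at chr10:45000673-45000922 (plus strand), chrX:64395453-64395702 (minus), chr9:6214899-6215148 (plus), chr12:108320643-108320892 (minus) and chr17:69060928-69061177 (minus), in that order.
ZNF22: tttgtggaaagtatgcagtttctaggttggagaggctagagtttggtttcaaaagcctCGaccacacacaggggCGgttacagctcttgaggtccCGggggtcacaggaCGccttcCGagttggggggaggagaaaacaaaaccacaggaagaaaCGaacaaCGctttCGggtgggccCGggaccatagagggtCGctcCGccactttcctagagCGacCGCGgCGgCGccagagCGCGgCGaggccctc
MTMR8: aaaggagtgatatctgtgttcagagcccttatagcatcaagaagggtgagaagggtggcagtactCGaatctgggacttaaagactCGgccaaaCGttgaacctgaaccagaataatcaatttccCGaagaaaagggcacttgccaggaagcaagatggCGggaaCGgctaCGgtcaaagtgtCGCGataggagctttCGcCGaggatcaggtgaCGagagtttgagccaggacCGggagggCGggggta
IL33: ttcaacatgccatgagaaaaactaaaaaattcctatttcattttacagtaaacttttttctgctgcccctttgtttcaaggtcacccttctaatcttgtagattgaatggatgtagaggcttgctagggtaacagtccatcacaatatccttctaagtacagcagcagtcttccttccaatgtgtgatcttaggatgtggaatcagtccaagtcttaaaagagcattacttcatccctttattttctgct
CMKLR1: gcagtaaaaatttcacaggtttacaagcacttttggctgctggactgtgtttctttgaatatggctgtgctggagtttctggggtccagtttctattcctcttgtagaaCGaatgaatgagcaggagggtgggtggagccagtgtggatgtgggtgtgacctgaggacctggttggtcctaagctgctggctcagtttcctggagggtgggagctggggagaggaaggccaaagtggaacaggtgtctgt
ABCA9: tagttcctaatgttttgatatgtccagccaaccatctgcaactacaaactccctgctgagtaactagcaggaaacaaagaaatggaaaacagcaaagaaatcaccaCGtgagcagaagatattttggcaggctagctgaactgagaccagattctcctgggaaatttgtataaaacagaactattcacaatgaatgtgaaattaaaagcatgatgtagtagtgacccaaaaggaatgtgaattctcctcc
ZNF22 and MTMR8 hold 19 and 14 CG pairs, a number that 34.3% and 44.7% of all 27305 promoters reach. IL33 holds 0, and CMKLR1 and ABCA9 hold 1 each, which 93.6% reach. Other genes went the opposite way: EYA4 and FBLN5, which fell, hold 36 and 27, while ANO5 and LINC01060, on in 2N-3 alone, hold 5 each, and NMU and GSTM3, which rose, hold 4 and 1. Methylation was not measured in these libraries.

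Inflammatory and matrix genes that passed the test went both ways, while most matrix genes lay below 0. Of 26 cytokine and chemokine genes, 16 were tested on reads, with 2 rising, 3 falling and 3 called, against 1.67%, 1.87% and 1.66% of all genes tested. The counts without A were 2 rising and 3 falling. CCL2 and IL33 fell as given above, and IL1B, the gene of interleukin-1 beta, fell from 6.49, 6.51 and 6.33 RPKM to 5.08, 4.25 and 4.26, a difference of -0.47. NFKBIA, the inhibitor of NF-kappa-B, rose by 0.55 and CXCL8, a neutrophil chemokine, by 1.24 on reads. Of 28 genes of fibrillar matrix and matrix enzymes, 23 were tested on reads, with 1 rising and 3 falling, and with 2 rising and 3 falling without A. Of the 23, 6 lay above 0, with a median of -0.16 against -0.01 over all genes tested. Without A, 7 lay above 0, with a median of -0.10. FBLN5, an elastic fibre protein, fell by 1.54 and COL1A2, a chain of type I collagen, by 1.40, the latter with 68 reads against 20. FN1, fibronectin, differed by -0.76 on both scales, with a limma adjusted p of 0.0471 on reads and 0.13 on RPKM, and by -0.40 on both without A. COL5A1, a chain of type V collagen, rose from 3 to 40 reads. The small leucine-rich proteoglycans, which coat collagen fibrils, mostly lay below 0. Of 7 tested on reads, 1 rose, 1 fell and only 1 lay above 0, with a median of -0.50. BGN, biglycan, rose from 0.806, 1.11 and 0.508 to 7.06, 6.61 and 5.10 reads per M (2.96), and FMOD, fibromodulin, fell from 5.02, 5.15 and 4.39 to 1.33, 1.73 and 1.53 (-1.66). LUM, lumican, was at 4.76 ± 0.423 RPKM in 2N-2 and 3.23 ± 0.171 in 2N-3 (SD, n = 3), and this difference of -0.49 did not pass the test (limma adjusted p = 0.135).

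Targets of YAP and TAZ, the effectors of the Hippo pathway that respond to cell density and tension, changed in 1 direction where they changed. Of 17 tested on RPKM, 4 rose and 0 fell, with a median of 0.09 against 0.04 over all genes, of which 0.598% rose. Without A of 2N-3, 6 rose and 0 fell, against 0.855% rising over all genes. CYR61, a matricellular protein, was at 82.6, 83.2 and 71.6 RPKM in 2N-2 and at 152, 124 and 134 in 2N-3, a rise of 0.78 (SE 0.11, limma adjusted p = 0.00167). CTGF, its relative, went from 54.9, 52.8 and 43.1 to 86.5, 78.0 and 82.2, a rise of 0.71. F3, tissue factor, rose by 0.67 and GADD45B, a stress gene, by 0.73, or 0.53 without A. After quantile normalisation CTGF (0.49, limma adjusted p = 0.0772) and F3 (0.55, adjusted p = 0.129) did not pass. CYR61 (0.54, adjusted p = 0.0436) and GADD45B (0.55, adjusted p = 0.000355) still passed. On reads, 5 of 22 rose and 0 fell, against 1.67% and 1.87% of all genes tested. The list's median change on reads was -0.04, against -0.01 over all genes tested. The immediate early genes EGR1 and FOS, whose RNA responds to serum and handling within minutes, overlapped between the clones, with differences of 0.22 and 0.09 (limma adjusted p = 0.573 and 0.885).

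Few cell cycle genes passed the test. Of 32 mitosis genes and 23 DNA replication genes tested on RPKM, 0 rose and 0 fell, with medians of 0.18 and 0.11, and on reads, 0 of 33 and 0 of 30 passed. Of the 32 mitosis genes, 29 lay above 0 with all libraries, where the median over all genes was 0.04. Without A of 2N-3, all 32 lay above 0 with a median of 0.22 against -0.01 over all genes, and again 0 passed. On reads without A, all 33 lay above 0 with a median of 0.28, against 0.00 over all genes, and 0 passed. The DNA replication genes had a median of 0.04 on RPKM without A. At an unadjusted p under 0.05 and with all libraries, 4 mitosis genes were higher on RPKM and 7 on reads, and 0 DNA replication genes by either fit. AURKB, Aurora B itself, was at 5.97, 5.89 and 7.34 RPKM in 2N-2 and at 10.9, 6.50 and 7.75 in 2N-3, with overlapping groups (0.34, limma adjusted p = 0.37). CCND1, cyclin D1, was at 31.4 ± 2.82 and 35.5 ± 4.66 RPKM (SD, n = 3; adjusted p = 0.489). CCND2, cyclin D2, had 2 reads in 2N-2 and 60 in 2N-3, and rose in the fit of reads (adjusted p = 5.76e-05), yet its mean of 0.492 reads per M in 2N-3 was far below the 10.9 to 21.7 of the tetraploid clones. Of 24 p53 targets tested on RPKM, 0 rose and 1 fell, SESN2, a stress sensor (-0.24), against 0.598% and 0.423% of all genes tested. Without A 0 rose and 2 fell, against 0.855% and 1.12% of all genes tested. SESN2 did not pass after quantile normalisation (-0.15, limma adjusted p = 0.386). CDKN1A, the inhibitor p21, was at 14.2, 15.02 and 13.1 RPKM in 2N-2 and at 13.0, 10.6 and 10.3 in 2N-3, and did not pass with all 6 libraries (-0.31, limma adjusted p = 0.153). It passed without A (-0.41, adjusted p = 0.0112) and, with all libraries, after quantile normalisation (-0.45, adjusted p = 0.0157). SPATA18, a p53 target of mitochondrial quality control, rose by 1.69 on reads.

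Some of the other lists held changes in a few members. Of 16 heat shock genes, 3 rose and 0 fell on RPKM, HSPA1A (0.46), HSPA1B (0.50) and HSPB7 (0.52), with a list median of 0.25. Over all genes 0.598% rose and 0.423% fell, with a median of 0.04. Without A, 2 rose and 2 fell, against 0.855% and 1.12% of all genes. HSPB7 did not pass after median centring or quantile normalisation (limma adjusted p = 0.0978 and 0.0637), while HSPA1A and HSPA1B did. None of the 3 passed with the letters A to C as a replicate block. HSPA1A and HSPA1B are near-identical copies whose reads cannot be divided with certainty. The imprinted gene MEST fell from 14.3, 13.6 and 13.4 RPKM to 9.10, 8.67 and 9.02 (-0.60). The clones did not overlap, and A lay close to B and C. GBP1, a guanylate-binding protein induced by interferon, was the 1 of 25 interferon genes to change, rising by 0.49. Of 22 pigment epithelium markers tested on reads, 2 rose and 0 fell, against 1.67% and 1.87% of all genes tested. The list as a whole did not shift, with 11 of the 22 above 0 and a median of 0.02. On RPKM 0 of 7 passed, with a median of -0.11. GPR143, a receptor of pigment organelles, rose from 10.0, 11.96 and 11.0 to 34.2, 25.3 and 25.7 reads per M (1.35), and BEST1, a chloride channel, rose by 1.41. TIMP3 was under 0.5 reads per M in all 6 libraries and did not pass (adjusted p = 0.0523). The cytosolic ribosomal protein genes had a median of 0.28, and of -0.05 without A, and 0 of 33 passed limma on RPKM with or without it. At an unadjusted p under 0.05, 1 was higher with A and 1 lower without it, against 3 higher and 1 lower on reads.

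Chromosome 12 was lower as a whole in 2N-3. The median change of its 423 protein-coding genes tested on RPKM was -0.08, and -0.08 without A, while the medians of the other 22 chromosomes lay between -0.02 and 0.10, or between -0.04 and 0.04 without A. With all 6 libraries, 279 of the 423 genes (66.0%) were below 0, against 40.5% of the 6013 genes elsewhere. Of the 423, 6 fell (1.42%) and 0 rose, against 31 falling (0.52%) and 47 rising elsewhere. Without A, 343 of the 423 genes (81.1%) were below 0, against 52.4% elsewhere. Of the 423, 23 fell (5.44%) and 0 rose, against 77 falling (1.28%) and 70 rising elsewhere. The 23 include overlapping gene models, such as AC073610.3 and ARF3. The 4 stretches of equal gene number along chromosome 12 had medians of -0.07, -0.11, -0.06 and -0.09 without A. With all 6 libraries the medians were -0.09, -0.03, -0.07 and -0.08. Set against the other chromosomes, chromosome 12 stood at -0.20, -0.06 and -0.05 in A, B and C of 2N-3 and between 0.00 and 0.03 in the 15 libraries of the other clones. In A other chromosomes stood apart too, such as chromosome 13 at -0.29, 18 at -0.20, 5 at -0.18 and 19 at 0.32, while in B and in C chromosome 12 was the lowest of all. The genes that fell furthest were KRT81, a hair keratin (-0.67), NAB2, a repressor of EGR proteins (-0.52), and GPRC5A, a retinoic acid-induced receptor (-0.47), all 3 without A. With all libraries GPRC5A passed the test and KRT81 did not (-0.40, limma adjusted p = 0.268). NAB2 did not pass on RPKM as scaled by the authors (-0.38, limma adjusted p = 0.0967). It passed after median centring (-0.41, adjusted p = 0.0368) and quantile normalisation (-0.44, adjusted p = 0.00817). MVK, mevalonate kinase, fell by 0.38 without A and did not pass with all libraries (-0.23, limma adjusted p = 0.269). DNA copy number was not measured in these libraries.

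**Figure D5:**
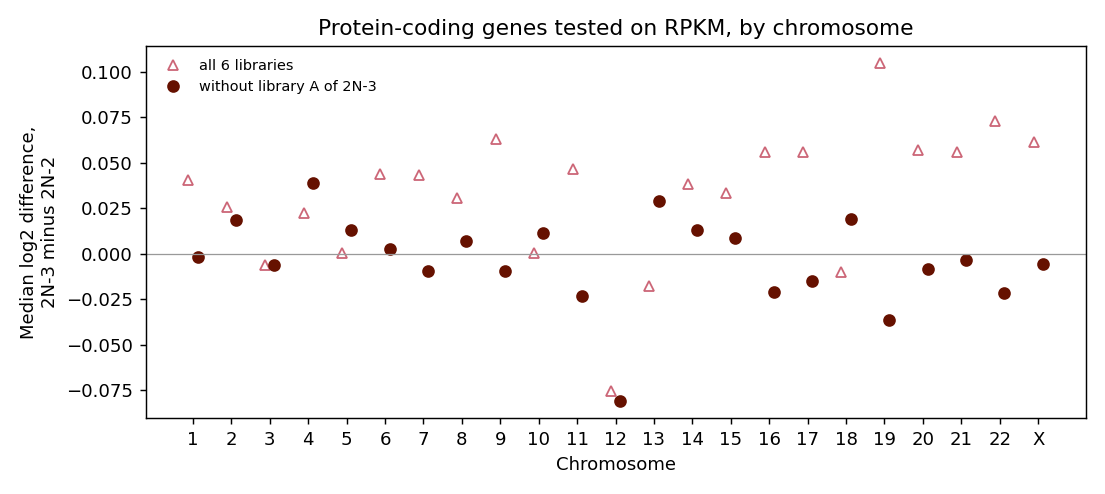
Median log2 difference of protein-coding genes tested on RPKM, 2N-3 minus 2N-2, by chromosome, with all 6 libraries (open triangles) and without library A of 2N-3 (circles). Chromosome 12 lies at -0.08 in both, below the other chromosomes, while chromosome 19 moves from 0.10 to -0.04 when A is left out.

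Some called genes lay beside each other. Of the 388 calls on reads, 75 fell in 29 runs of neighbouring tested genes called in the same direction, among them the ABCA, WT1, HOXA, HOXB and HOXC runs. The count without A was 69 calls in 26 runs. How many runs would arise without any tie between neighbours was not worked out. Some runs are overlapping gene models that share reads, such as the 9 UGT1A genes of bilirubin and drug conjugation on chromosome 2, which lay under 1 read per M.

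The third diploid clone gives a scale for these counts. On RPKM, 17 genes were called for 2N-2 against 2N-1 (0.175%) and 12 for 2N-3 against 2N-1 (0.124%). On reads, 319 (1.36%) and 214 (0.914%) were called. The 3 comparisons share libraries, so no overlap between them is given. Of the 214 genes higher in 2N-3 than in 2N-2 on reads, 2N-1 was nearer to 2N-3 in 111, and of the 174 lower in 2N-3, 2N-1 was nearer to 2N-3 in 119. With A of 2N-3 left out, these counts were 114 of 212 higher and 108 of 147 lower.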

How the data were processed

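Polyadenylated RNA of the 18 libraries was made into stranded TruSeq libraries, per the labels' protocols. CASAVA 1.8.2, TopHat2 and edgeR served the authors, with build hg19, per the submitters' processing notes. The annotation release and use of strand in counting are not given in the sources used here, so reads of overlapping and antisense genes cannot be told apart. The authors deposited RPKM for 57773 genes. The length implied by these values was the genomic span, within 0.5%, for 21578 of 24771 genes compared (87.1%). Whole reads within 0.01 were recovered from the RPKM steps for all 40853 genes above 0 (100% of values), 310 of them with a common factor taken from the span. Identifiers of 52338 genes matched GENCODE v29 (GRCh38), the source of positions.

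With limma 3.58.1 (R 4.3.3), log2(RPKM + 0.5) was modelled for genes at 1 RPKM or more in 3 libraries, and reads with limma-voom for genes at 10 reads or more in 3 libraries. All 18 libraries entered, with 1 mean per clone and two-sided tests adjusted by Benjamini-Hochberg over all genes tested. The spread was pooled over the clones, though the median SD of log2(RPKM + 0.5) was 0.239 in 2N-3 and 0.061 to 0.106 in the others. With only the 6 libraries, MDK, CYR61 and MEST did not pass on RPKM (limma adjusted p = 0.318, 0.412 and 0.316). THBD, CCL2 and CACNG7 did (adjusted p = 0.00227, 0.0416 and 0.0225). The letters A to C were not used to pair libraries. Replicates are libraries of 1 clone, so p-values are about these 2 clones.

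The members and the 31 gene lists were chosen with earlier results of these data known. Named genes were called genes without overlap, up to 15 per direction at 2 RPKM or more and 10 at 10 reads per M or more; on or off genes; up to 4 per list; the extremes of A of 2N-3; and a set of cell cycle and marker genes. Others are marked as named after their values were seen, or belong to a count given; a few genes are not reported here. Alternatives changed the pseudocount, filter, scaling, libraries in the fit and replicate block. The counts without A for on or off genes, neighbouring calls, promoters and nearness to 2N-1 were chosen after seeing the data.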

Additional observations from a re-analysis of the deposited data

How the results depend on the processing

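No named gene that passed its test changed sign under the alternatives run; FOS and TIMP3, which did not pass, changed sign, FOS to -0.23 on RPKM without A of 2N-3 and TIMP3 to -0.02 with median centring. On RPKM, the 12 higher and 1 lower calls became 20 and 5 with a pseudocount of 0.1, 4 and 1 with a pseudocount of 1, and 2 and 1 when only the 6 libraries entered the fit. Without a filter on low values there were 15 and 3. Leaving out 1 library at a time gave 7 to 17 higher and 1 to 10 lower, with 17 and 10 without B of 2N-3 and 12 and 3 without C of 2N-3. On reads, the 214 higher and 174 lower became 111 and 100 with only the 6 libraries and 103 and 81 with log2 reads per M in place of voom. Leaving out 1 library at a time gave 307 to 501 calls on reads, the most without B of 2N-3. The 8 and 5 genes on in 1 clone became 1 and 2 with off at 0.02 reads per M, and 0 and 0 with on at 5 reads per M. The cause of these shifts was not tested.

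With the letters A to C as a replicate block, 11 higher and 1 lower genes were called on RPKM and 203 and 169 on reads. Same-letter libraries of the clones correlated at -0.13, -0.05 and 0.10 in their deviations from the clone means. Libraries of unlike letter correlated at -0.19 to 0.14. Deviations from a clone mean cancel within the clone, and in 2N-3 A dominates them, so these values cannot show whether the letters pair libraries. The median call on reads had 1.42 reads per M in the higher clone, where few reads limit what can be seen.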
